A study of Mus musculus with 22 samples.

Results

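Csad, Cdo1, Ado, Slc6a6, Cth and Cbs form the core of cysteine use and taurine handling in liver, and their RNA levels were followed in the livers of female C57BL/6 mice that were germ-free or conventional (carrying a microbiota), pregnant or not. These 6 genes are 6 of the 53392 rows of the deposited count table, found by matching each row's Ensembl gene ID to its GENCODE mouse gene name. Germ-free pregnant mice (n = 5) and germ-free non-pregnant mice (n = 6) were set against conventional pregnant mice (n = 5) and conventional non-pregnant mice (n = 6), with 1 liver RNA-seq library per mouse. All pregnant mice were taken on gestation day 15. Conventional dams were mated overnight, whereas germ-free dams were housed with males for 72 h and their start of gestation was assumed, so the stage of the germ-free pregnancies is less exact. All mice received the same autoclaved diet, water and bedding. The labels give ages without a unit, from 91 to 121 in germ-free pregnant and from 92 to 105 in germ-free non-pregnant mice, against 70 to 77 in both conventional groups, so microbiota and age cannot be told apart.

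The liver makes cysteine from methionine through homocysteine: cystathionine beta-synthase (Cbs) joins homocysteine to serine and cystathionine gamma-lyase (Cth) splits the product to release cysteine. Cysteine dioxygenase (Cdo1) oxidises cysteine to cysteine sulfinate, and cysteine sulfinic acid decarboxylase (Csad) turns that into hypotaurine, the direct precursor of taurine. Cysteamine dioxygenase (Ado) reaches hypotaurine by another route, from cysteamine, and Slc6a6 is the sodium-dependent taurine transporter of the plasma membrane. Mouse bile acids are conjugated mainly with taurine in the liver, and gut bacteria remove the taurine again in the intestine.

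Of the 6 genes, Csad was far lower in germ-free than in conventional livers in both reproductive states, and it was the only one of them whose germ-free and conventional libraries did not overlap. Its level averaged 18.7 ± 12.5 CPM (read counts scaled to library size, with TMM factors) in germ-free pregnant mice against 137 ± 97.3 CPM in conventional pregnant mice (SD, n = 5 each). Without pregnancy it averaged 15.6 ± 3.87 CPM in germ-free livers against 98.7 ± 17.2 CPM in conventional livers (SD, n = 6 each). The other 5 genes, upstream of Csad, beside it or in taurine uptake, had germ-free over conventional log2 changes between -0.54 and 0.74. The 6 genes were chosen by earlier results of these same libraries, including the germ-free difference of Csad, so their levels and changes are given as a description with no p-value, and the calls counted for them further on are no independent test.

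Csad lies on the minus strand of mouse chromosome 15 (GRCm38.p6, chr15:102176999-102204724; ENSMUSG00000023044.2). The 2 promoter windows that RefSeq places at its annotated starts are shown because Csad is the gene the comparison turns on. Each runs from 250 bases before to 50 bases after an annotated start, on the minus strand of GRCm38.p6, with the 50 bases from the start onward in capitals. The upstream window is chr15:102205003-102205302 and the downstream one chr15:102188994-102189293.
Csad upstream promoter: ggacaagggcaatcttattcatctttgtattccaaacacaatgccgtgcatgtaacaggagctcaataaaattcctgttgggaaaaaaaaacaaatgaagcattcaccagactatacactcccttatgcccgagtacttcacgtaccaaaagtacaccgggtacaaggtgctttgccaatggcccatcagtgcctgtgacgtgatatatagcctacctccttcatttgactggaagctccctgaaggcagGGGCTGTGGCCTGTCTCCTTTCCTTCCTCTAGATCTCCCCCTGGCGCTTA
Csad downstream promoter: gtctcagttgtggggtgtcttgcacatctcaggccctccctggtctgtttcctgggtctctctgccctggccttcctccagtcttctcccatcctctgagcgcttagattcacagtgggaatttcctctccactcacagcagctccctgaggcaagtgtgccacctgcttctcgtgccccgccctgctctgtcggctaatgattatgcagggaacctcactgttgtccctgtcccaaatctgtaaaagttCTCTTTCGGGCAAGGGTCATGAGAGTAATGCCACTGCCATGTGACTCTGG
The upstream window had a GC content of 47.3% with 6 CpG dinucleotides, and 29.7% of all 32851 promoter windows in the RefSeq table had a lower GC content. The downstream window had 55.3% GC and 5 CpG. Of the other genes, Ado and Cbs had a window in the same table, with 76.0% GC and 51 CpG for Ado and 66.7% GC and 22 CpG for Cbs.

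The upstream Csad window, its capitals included, lies outside the GENCODE gene model of Csad given above and shares no base with its exons. It lies wholly inside Zfp740, a zinc finger gene on the opposite strand, and 158 of its 300 bases are annotated Zfp740 exon. The downstream window lies inside Csad, with 65 bases in annotated Csad exons. Both windows were searched on both strands for 7 short motifs: the inverted repeat 1 of nuclear receptor half-sites, which 0.01% of all windows hold; the half-site AGGTCA (16.26%); the STAT site TTCNNNGAA (8.3%); the TATA box TATAAA (13.62%); the E-box CACGTG (7.15%); the amino acid response core TGATGCAA (0.89%); and the cyclic AMP response element TGACGTCA (1.79%). The half-site is part of the inverted repeat. Neither Csad window held any of the 7, and the Cbs window held 1 E-box.

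The libraries held between 18064491 and 30036912 estimated counts each, and mitochondrially encoded genes took 5.9% to 31.99% of a library. The liver label was checked with hepatocyte markers, of which 5 of 6 were found in the table: they summed to between 50286 and 235510 CPM per library. Among the markers of all 13 cell type and state lists, the germ-free comparisons called 1 gene, a periportal one that was higher in germ-free pregnant mice. Conventional pregnant replicate 2 stood apart from the other 21 libraries, as was seen after its values were examined. Its 5 acute phase genes summed to 6426 CPM against 51.4 to 388 CPM in the others, its 6 Kupffer cell markers to 992 CPM against 127 to 463 CPM, and its 5 cell cycle genes to 160 CPM against 4.32 to 27.8 CPM. Changes of the 6 genes and calls of listed pathway genes that rest on it are also given without it. In whole liver, fewer cells of a type and less RNA per cell cannot be told apart.

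**Figure D1:**
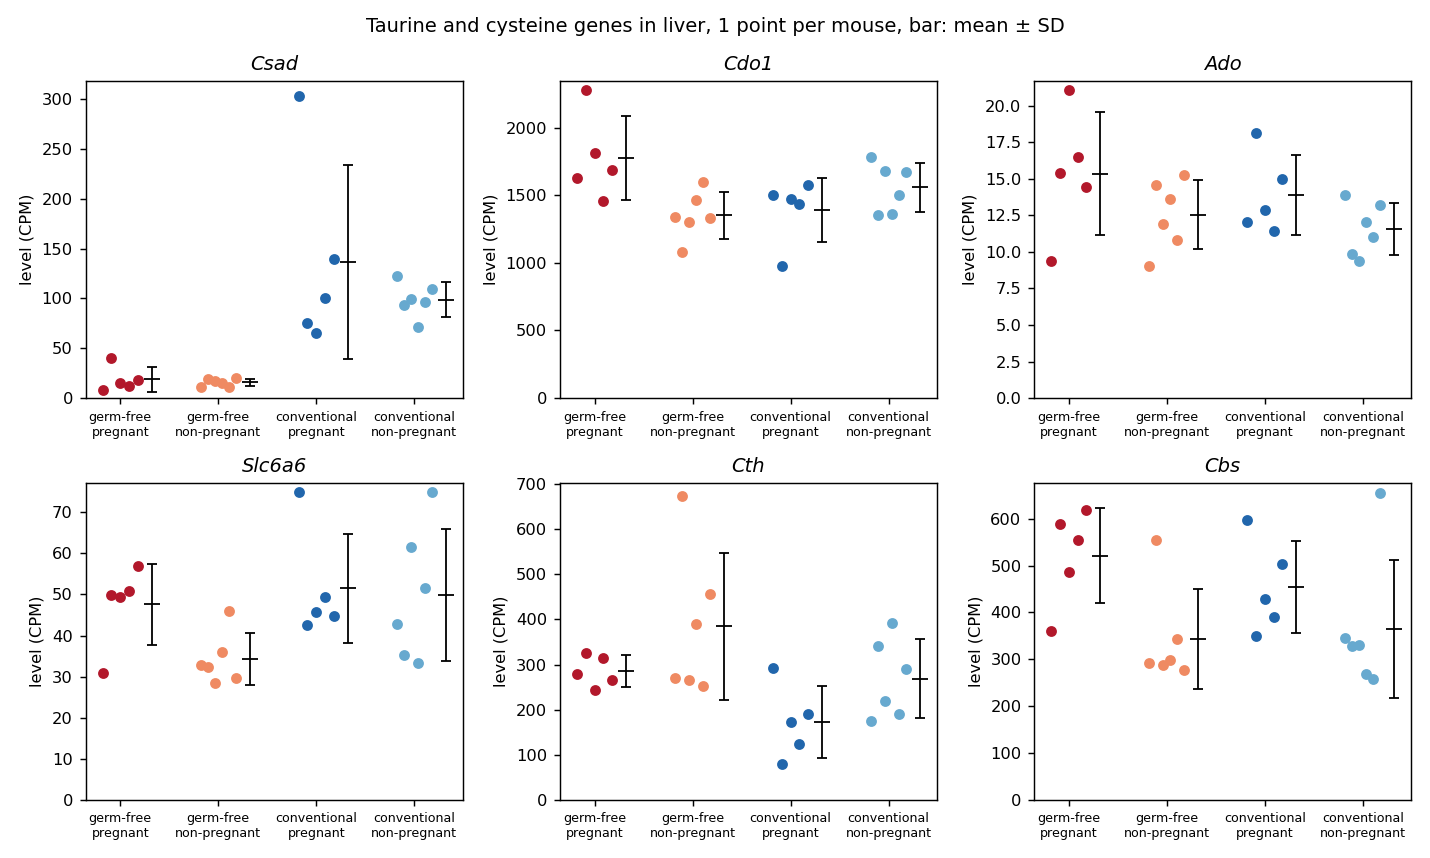
Level of each of the 6 genes in CPM (vertical axes, starting at 0) in every liver, 1 point per mouse, with the mean and SD of each group as a bar beside the points. Csad points of germ-free mice sit between 8.38 and 40.0 CPM and those of conventional mice between 65.7 and 303 CPM, while the groups of the other 5 genes overlap.

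Cbs, the enzyme of the committed step toward cysteine, lies at chr17:31608894-31637238. It had 361, 589, 486, 554 and 618 CPM in germ-free pregnant livers, against a range of 277 to 555 CPM with a median of 296 CPM in germ-free non-pregnant livers. In conventional livers it had 597, 349, 428, 391 and 504 CPM in pregnant mice, against 259 to 655 CPM with a median of 329 CPM in non-pregnant mice. In each non-pregnant group 1 library lay far above the other 5, and the pregnant and non-pregnant ranges overlapped. The log2 change with pregnancy was 0.61 ± 0.23 (SE) in germ-free mice and 0.32 ± 0.23 in conventional mice, or 0.40 ± 0.24 without conventional pregnant replicate 2. Germ-free over conventional, it was 0.20 ± 0.24 in pregnant mice, or 0.12 ± 0.25 without that library, and -0.09 ± 0.22 in non-pregnant mice.

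Cth, which releases cysteine and can also make hydrogen sulfide, lies at chr3:157894248-157925077. It had 279, 326, 243, 315 and 266 CPM in germ-free pregnant livers, against 292, 79.2, 172, 125 and 189.6 CPM in conventional pregnant livers. In non-pregnant mice it ran from 251 to 674 CPM (median 330.3) in germ-free livers, against 175 to 393 CPM (median 254) in conventional livers. All but 1 conventional pregnant library lay below every germ-free pregnant library, and the non-pregnant ranges overlapped. The germ-free over conventional log2 change was 0.74 ± 0.30 in pregnant mice, or 0.55 ± 0.29 without conventional pregnant replicate 2, and 0.52 ± 0.28 in non-pregnant mice. With pregnancy, Cth changed by a log2 value of -0.43 ± 0.29 in germ-free and -0.64 ± 0.29 in conventional mice, or -0.46 ± 0.28 without that library. Over the 22 libraries, log2 Cth had a Pearson correlation of 0.68 with the percentage of mitochondrially encoded counts, and 0.53 after the group means were taken out. Its part in the Cth differences was not tested.

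Cdo1 (ENSMUSG00000033022.7, chromosome 18), the enzyme that controls how much cysteine is oxidised, was the most abundant of the 6 genes in every group. It had 1631, 2280.1, 1813, 1456 and 1684 CPM in germ-free pregnant livers, against 1502, 976, 1471, 1439 and 1574 CPM in conventional pregnant livers. In non-pregnant mice it ran from 1082 to 1600.0 CPM (median 1335) in germ-free livers, against 1352 to 1786 CPM (median 1588) in conventional livers. The lowest value of all belonged to conventional pregnant replicate 2, and the ranges overlapped in each comparison. The log2 change with pregnancy was 0.39 ± 0.16 in germ-free mice and -0.16 ± 0.16 in conventional mice, or -0.06 ± 0.15 without that library. Germ-free over conventional, it was 0.35 ± 0.16 in pregnant mice, or 0.24 ± 0.15 without that library, and -0.20 ± 0.15 in non-pregnant mice. The difference between the 2 pregnancy changes was 0.55 ± 0.22, or 0.45 ± 0.20 without that library, and 0.30 when the libraries were scaled by their totals alone. Under that scaling the median gene had a difference of -0.29, against -0.02 with TMM factors.

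Csad, the next enzyme of the route, had 8.38, 40.0, 15.1, 11.7 and 18.4 CPM in germ-free pregnant livers, against 303, 74.9, 65.7, 100.4 and 139 CPM in conventional pregnant livers. In non-pregnant mice it ran from 11.1 to 19.7 CPM (median 16.1) in germ-free livers, against 71.4 to 123 CPM (median 97.7) in conventional livers. Every germ-free library lay below every conventional library. The 2 pregnant groups were the more scattered, each with 1 library well above the rest, at 40.0 CPM in germ-free and 303 CPM in conventional mice. The coefficient of variation was 66.6% in germ-free pregnant and 24.8% in germ-free non-pregnant mice, and 71.2% in conventional pregnant and 17.5% in conventional non-pregnant mice.

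Germ-free over conventional, the fitted log2 change of Csad was -2.87 ± 0.40 in pregnant mice, a level 7.31-fold lower, and -2.66 ± 0.36 in non-pregnant mice, 6.32-fold lower. Without conventional pregnant replicate 2 the change in pregnant mice was -3.03 ± 0.39. The difference between the 2 germ-free changes was -0.21 ± 0.50, or -0.36 ± 0.50 without that library. Among 15928 genes tested, 36 had a lower log2 change than Csad in pregnant mice and 20 in non-pregnant mice. Among the 9014 genes with a mean of at least 5 CPM, those numbers were 15 and 7.

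With pregnancy, Csad had a log2 change of 0.26 ± 0.36 in germ-free mice and 0.47 ± 0.35 in conventional mice (0.62 ± 0.36 without conventional pregnant replicate 2), and the pregnant and non-pregnant ranges overlapped in both. In each case 1 library set the sign. The change was -0.22 in germ-free mice without the pregnant library at 40.0 CPM (replicate 2), and -0.06 in conventional mice without the pregnant library at 303 CPM (replicate 1). Scaling by library totals alone also turned the change in germ-free mice to -0.06, under which the median gene changed by -0.33.

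Ado, the enzyme of the cysteamine route, lies at chr10:67544511-67548955 and was low in all groups. It had 9.36, 15.4, 21.1, 16.5 and 14.4 CPM in germ-free pregnant livers, against 12.0, 18.1, 12.9, 11.4 and 15.0 CPM in conventional pregnant livers. Among non-pregnant mice it ran from 9.06 to 15.3 CPM in germ-free livers, against 9.40 to 13.9 CPM in conventional livers. The ranges overlapped in all comparisons. The germ-free over conventional log2 change was 0.15 ± 0.18 in pregnant mice, or 0.26 ± 0.19 without conventional pregnant replicate 2, and 0.12 ± 0.17 in non-pregnant mice. The change with pregnancy was 0.29 ± 0.18 in germ-free and 0.27 ± 0.18 in conventional mice, or 0.15 ± 0.18 without that library.

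Slc6a6, which brings taurine into the cell, lies at chr6:91684053-91759066. It had 30.8, 49.8, 49.4, 50.8 and 57.0 CPM in germ-free pregnant livers, against 74.9, 42.6, 45.8, 49.4 and 44.8 CPM in conventional pregnant livers. Among non-pregnant mice it ran from 28.4 to 46.1 CPM (median 32.6) in germ-free livers, against 33.3 to 74.9 CPM (median 47.1) in conventional livers. Germ-free non-pregnant livers had the lowest mean, and their range overlapped that of each other group. The germ-free over conventional log2 change was -0.11 ± 0.21 in pregnant mice, or -0.18 ± 0.22 without conventional pregnant replicate 2, and -0.54 ± 0.20 in non-pregnant mice. With pregnancy it was 0.47 ± 0.20 in germ-free and 0.05 ± 0.20 in conventional mice, or 0.11 ± 0.22 without that library. Log2 Slc6a6 had a Pearson correlation of -0.57 with the mitochondrially encoded percentage over 22 libraries, and -0.47 after the group means were taken out. Its part in these differences was not tested.

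**Figure D2:**
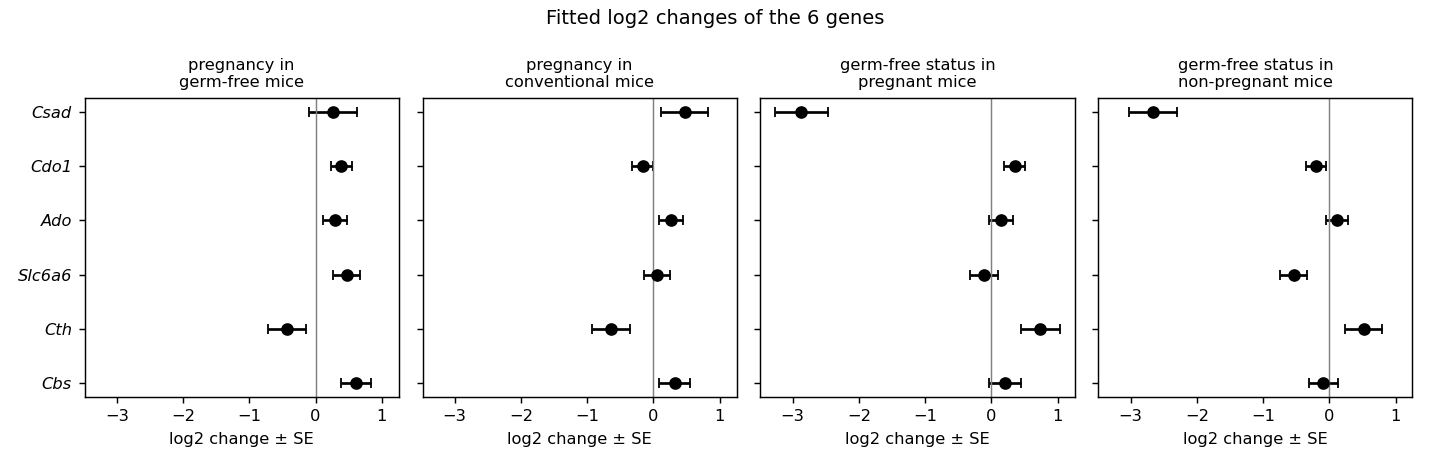
Fitted log2 change with its SE (horizontal axes) for each of the 6 genes in the 4 comparisons, pregnant over non-pregnant in the left panels and germ-free over conventional in the right panels. Csad lies at -2.87 in pregnant and -2.66 in non-pregnant mice in the germ-free comparisons, and all other points lie between -0.64 and 0.74.

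A gene was called when edgeR's quasi-likelihood test gave a Benjamini-Hochberg adjusted p under 0.05 over all 15928 genes. In pregnant mice, 1 of the 6 genes (Csad) was called lower in germ-free livers, where 0.0502% of all tested genes were called lower, and 1 of 6 did not overlap, where 1.1% of tested genes did not. In non-pregnant mice, 1 of 6 (Csad) was called lower, where 0.0691% of all tested genes were, and 1 of 6 did not overlap, where 0.797% did not. None of the 6 was called higher in germ-free livers, where 0.0816% of tested genes were in pregnant and 0.0879% in non-pregnant mice. With pregnancy, 0 of the 6 were called in germ-free mice, where 10.8% of all tested genes were, and 0 in conventional mice, where 9.02% were. None of the 6 separated pregnant from non-pregnant libraries completely, where 8.47% of tested genes did in germ-free and 4.96% in conventional mice. For the difference between the pregnancy changes of germ-free and conventional mice, 0 of 6 were called, where 0.0% of tested genes were. These counts come from the comparisons in which the genes were picked.

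Levels were compared between genes per kilobase of annotated exon. Cdo1 came first in all 4 groups, with 1078 CPM per kb in germ-free pregnant, 823 in germ-free non-pregnant, 847 in conventional pregnant and 948 in conventional non-pregnant livers. Cth and Cbs followed, and their ranges overlapped in both conventional groups and lay apart in both germ-free groups, with Cth the higher. That order rests on the length used, 7485 exon bases for Cbs and 2791 for Cth. In CPM, Cbs averaged 521 against 286 for Cth in germ-free pregnant and 342 against 385 in germ-free non-pregnant livers. The averages were 454 against 172 in conventional pregnant and 364 against 268 in conventional non-pregnant livers. Csad ranked above Slc6a6 in 4 of 11 germ-free and 11 of 11 conventional libraries, and above Ado in 9 of 11 germ-free and 11 of 11 conventional libraries. In conventional livers Csad therefore held the fourth place with a range apart from that of Slc6a6, whereas in germ-free livers the ranges of Csad and Slc6a6 overlapped.

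Since Csad acts on the product of Cdo1, their levels per kb were set against each other within each library. Csad amounted to 0.429 ± 0.201% of Cdo1 in germ-free pregnant livers (n = 5), against 4.13 ± 2.62% in conventional pregnant livers (SD, n = 5). In non-pregnant mice it was 0.512 ± 0.180% in germ-free livers, against 2.71 ± 0.269% in conventional livers (SD, n = 6 each). The share ran from 0.221% to 0.774% over the germ-free libraries and from 1.92% to 8.66% over the conventional ones. The ratio uses 2 of the chosen genes and is likewise a description. Its size depends on the annotated exon lengths, which are the same for every library.

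The kit of these libraries does not mark strand, and Csad and Zfp740 share 278 exon bases, 7.3% of the 3831 exon bases of Csad. Reads from those bases cannot be assigned to a strand. Summed over the 22 libraries, Csad had 33681 counts and Zfp740 8407. Zfp740 had a germ-free over conventional log2 change of -0.39 ± 0.16 in pregnant mice (adjusted p = 0.397) and -0.19 ± 0.15 in non-pregnant mice (adjusted p = 0.999). Of 27 tested genes within 500 kb of Csad on either side, a window chosen after the values were seen, edgeR called 0 in either germ-free comparison. At an unadjusted p under 0.05 there were 5 in pregnant mice, where 10.5% of all tested genes were, and 0 in non-pregnant mice, where 6.01% were. The median log2 change of these neighbours was 0.01 in pregnant and -0.07 in non-pregnant mice.

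**Figure D3:**
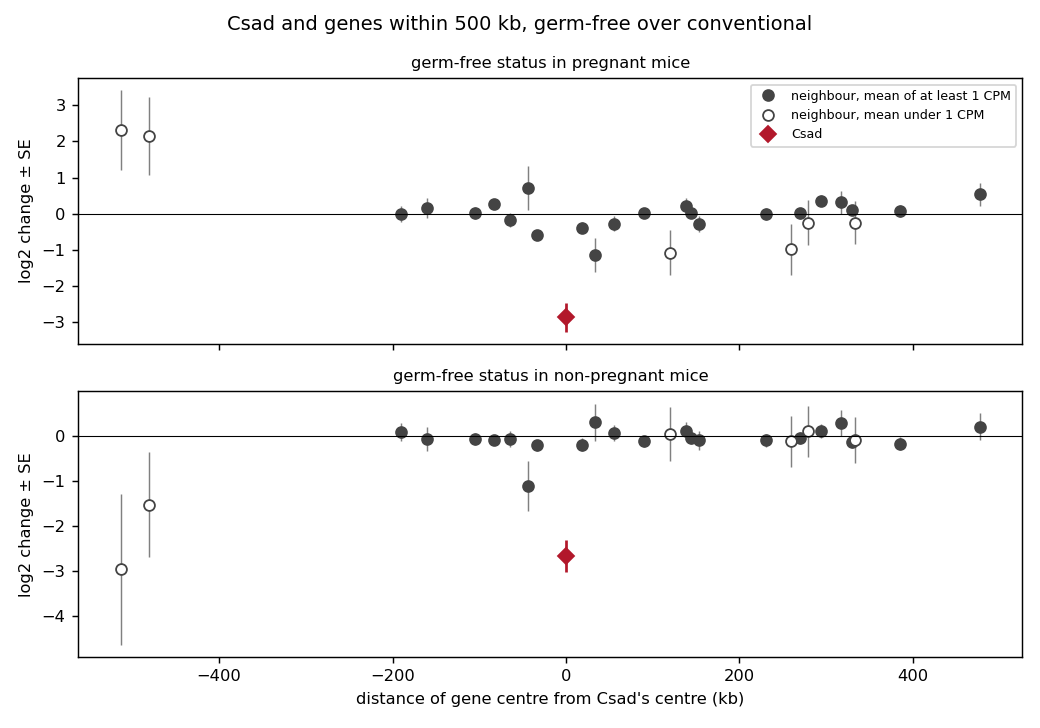
Germ-free over conventional log2 change with its SE (vertical axes) for Csad and 27 genes within 500 kb, placed by the distance of their centres from the centre of Csad in kb, in pregnant mice (top) and non-pregnant mice (bottom). Csad (diamond) lies at -2.87 and -2.66, and the neighbours have a median of 0.01 and -0.07; open circles are genes with a mean under 1 CPM.

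Among 8695 tested genes with an official symbol and a mean of at least 5 CPM, the 5 whose log2 CPM followed Csad most closely over the 22 libraries were Svil (Pearson r = 0.82), Serinc2 (0.80), Cdh1 (0.78), Sult5a1 (0.77) and Rhpn2 (0.76). All 22 libraries share the scaling, and Csad falls into separate germ-free and conventional clusters, which weigh on any such value. Sult5a1, a sulfotransferase family member, had the largest germ-free over conventional log2 changes of the 5, at -2.41 in pregnant and -2.28 in non-pregnant mice. Those of Serinc2 were -1.17 in pregnant and -1.16 in non-pregnant mice. After the 4 group means were taken out, the 5 closest were Pam (0.75), Serpinb1a (0.73), Agpat2 (0.73), Ptprk (0.72) and Nudt4 (0.72), none of which is among the first 5. These names depend on the measure: by Spearman correlation the 5 closest were Vps72, Inafm2, Ctdspl, Rab21 and Agpat2, and only Agpat2 was shared. Among the 6 genes, Csad after that step had a Pearson correlation of 0.51 with Cbs, 0.45 with Cdo1, 0.43 with Slc6a6, 0.42 with Cth and 0.23 with Ado (n = 22 libraries). The closest pair after that step was Slc6a6 with Cbs, at 0.63.

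The other genes of sulfur amino acid, taurine and bile acid metabolism were taken as 6 lists of 70 genes in all, of which 68 could be tested and Ggt1 and Slc7a9 could not. These lists were chosen with earlier results of these data known, so their counts and p-values are no independent test. None of the 68 was called in a germ-free comparison. In pregnant mice, 11 had an unadjusted p under 0.05 (10.5% of all tested genes did), the lowest adjusted p was 0.162 (Slc38a2), and the median log2 change was 0.08 against -0.03 over all genes. In non-pregnant mice, 10 had an unadjusted p under 0.05 (6.01% of all tested genes did), the lowest adjusted p was 0.133 (Cyp8b1), and the median was -0.09 against -0.01. DESeq2 called 2 in each. In pregnant mice these were Slc38a2, a neutral amino acid carrier, at a log2 change of 0.61 (adjusted p = 0.0223), and Ggct, an enzyme of glutathione breakdown, at -0.61 (adjusted p = 0.0489). In non-pregnant mice they were Cyp8b1, the sterol 12-alpha-hydroxylase of cholic acid synthesis, at -2.47 (adjusted p = 0.0205), and Ggct at -0.57 (adjusted p = 0.0395).

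Cyp8b1 had between 0.604 and 27.7 CPM (median 16.8) in germ-free non-pregnant livers, against 30.7 to 151 CPM (median 90.4) in conventional non-pregnant livers. These ranges did not overlap. In pregnant mice the ranges were 32.8 to 87.5 CPM in germ-free and 11.4 to 234 CPM in conventional livers. Their overlap rests on conventional pregnant replicate 2 alone, at 11.4 CPM. The other conventional pregnant livers had 100.03 to 234 CPM, above every germ-free pregnant liver. In pregnant mice Cyp8b1 was called neither by edgeR (adjusted p = 0.499) nor by DESeq2. The gene and that library were singled out after their values were seen. Ggct averaged 6.80 ± 1.34 CPM in germ-free non-pregnant against 10.2 ± 1.48 CPM in conventional non-pregnant livers (SD, n = 6 each). The 10 tested genes of taurine synthesis, use and transport had a median germ-free over conventional log2 change of -0.02 in pregnant mice (from -1.43 for Gadl1 to 0.34 for Slc27a5) and -0.18 in non-pregnant mice (from -0.47 for Acnat2 to 0.09 for Gadl1), and none was called. Baat, which attaches taurine to bile acids, had a log2 change of 0.05 ± 0.16 in pregnant mice (adjusted p = 0.943) and -0.05 ± 0.14 in non-pregnant mice (adjusted p = 0.999). Fmo1, which oxidises hypotaurine to taurine, had -0.03 ± 0.18 in pregnant and -0.14 ± 0.16 in non-pregnant mice. Slc6a13, another taurine carrier, had 0.00 ± 0.14 in pregnant and -0.15 ± 0.13 in non-pregnant mice. Cyp7a1, the first enzyme of bile acid synthesis, had 0.05 ± 0.47 in pregnant and -0.04 ± 0.43 in non-pregnant mice. Gadl1, a decarboxylase related to Csad, stayed at 0.558 CPM or less in all libraries, and its SE was 0.91 in pregnant and 0.69 in non-pregnant mice.

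With pregnancy, most listed genes were not called in either kind of mouse, and their median log2 change was 0.02 in germ-free and -0.06 in conventional mice, against -0.02 and 0.04 over all genes in the same mice. In germ-free mice 8 of 68 rose and 7 fell, 22.1% of the lists, where 7.15% of all tested genes rose and 3.6% fell. In conventional mice 2 rose and 12 fell, 20.6% of the lists, where 5.49% of all tested genes rose and 3.52% fell. As the lists were chosen with earlier results known, these shares are a description. Without conventional pregnant replicate 2, only 5 of the 68 remained called in conventional mice, 1 higher and 4 lower: Slc36a1, Slc10a1, Slc38a4, Slc7a2 and Tst. Over all genes, that fit called 669 higher and 377 lower among 16155 tested. Ethe1, Oplah, Pter, Slc10a1, Slc36a1, Slc38a4, Slc7a2 and Tstd1 were called in both germ-free and conventional mice, 8 of the 15 genes called in germ-free and of the 14 called in conventional mice. Calls of Slc36a1, Slc10a1, Slc38a4 and Slc7a2 were kept under all 18 alternative fits in both kinds of mice, as were those of Bhmt and Gamt in germ-free and of Tst in conventional mice. In germ-free mice the call was kept under 17 of 18 alternatives for Oplah and Pter and under 16 for Klb and Nr0b2. There it was kept under 14 for Ethe1, 11 for Bhmt2, 10 for Cndp2, 9 for Tstd1 and 8 for Mat1a. In conventional mice the call was kept under 17 for Selenbp1 (lost without replicate 2), 14 for Gnmt and 11 each for Oplah, Got1 and Tstd1. It was kept under 10 for Slc27a5, 8 for Pter, 7 for Ethe1 and 6 for Cyp27a1. None of the 68 differed in its pregnancy change between germ-free and conventional mice by edgeR (5 at an unadjusted p under 0.05, as had 5.68% of all tested genes; lowest adjusted p = 0.863) or by DESeq2.

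In the list of taurine synthesis, use and transport, 2 of 10 tested genes rose and 1 fell with pregnancy in germ-free mice, and 2 rose and 2 fell in conventional mice. Slc36a1, a proton-coupled carrier of small amino acids, had 32.2, 27.8, 42.3, 45.6 and 56.6 CPM in germ-free pregnant livers against 9.94 to 19.2 CPM (median 13.9) in germ-free non-pregnant livers. In conventional mice it had 38.3, 34.4, 54.4, 46.5 and 32.3 CPM in pregnant livers against 12.5 to 24.4 CPM (median 15.5) in non-pregnant livers. Pregnant and non-pregnant libraries did not overlap in either kind of mouse, and the log2 change was 1.51 ± 0.20 in germ-free (adjusted p = 1.64e-05) and 1.32 ± 0.20 in conventional mice (adjusted p = 0.000109). Pter, which cleaves N-acetyltaurine in mice, rose by 0.64 ± 0.13 in germ-free (adjusted p = 0.0016) and 0.43 ± 0.13 in conventional mice (adjusted p = 0.0381). The second call was lost without conventional pregnant replicate 2 (0.39, adjusted p = 0.0934).

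Slc10a1, the sodium-dependent carrier that returns conjugated bile acids to hepatocytes, had 259, 208, 164, 188 and 180.3 CPM in germ-free pregnant livers against 184 to 603 CPM (median 433) in germ-free non-pregnant livers. In conventional mice it had 293, 88.5, 236, 183 and 228 CPM in pregnant livers against 408 to 659 CPM (median 465) in non-pregnant livers. The conventional ranges did not overlap, and in germ-free mice 1 non-pregnant library fell among the pregnant ones. The log2 change was -1.08 ± 0.26 in germ-free (adjusted p = 0.0077) and -1.27 ± 0.26 in conventional mice (adjusted p = 0.00274). Slc27a5, which activates bile acids for conjugation, fell by 0.69 ± 0.20 in conventional mice (adjusted p = 0.0351), or by 0.50 without replicate 2 (adjusted p = 0.0522), and had a log2 change of -0.07 ± 0.20 in germ-free mice (adjusted p = 0.882). Baat had -0.35 ± 0.15 in germ-free (adjusted p = 0.143) and -0.46 ± 0.15 in conventional mice (adjusted p = 0.0595).

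**Figure D4:**
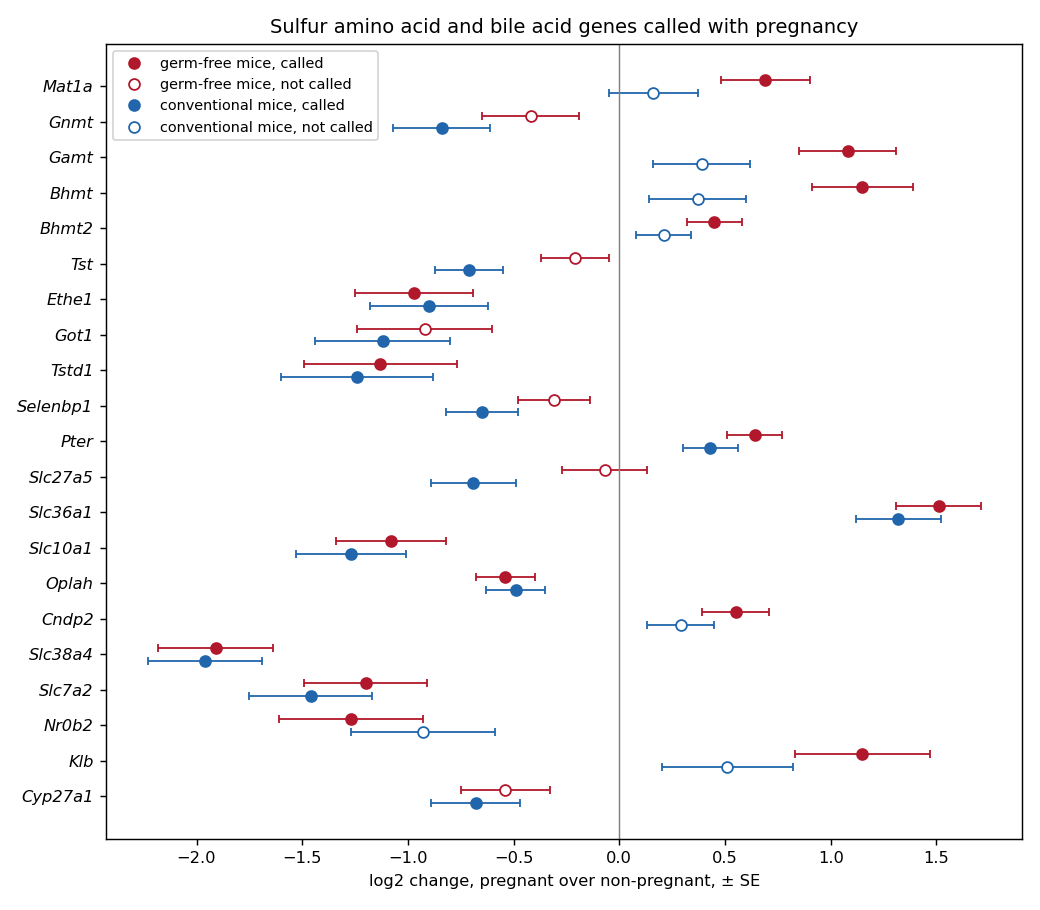
Log2 change with pregnancy and its SE (horizontal axis) for the 21 listed genes called in germ-free mice (red), conventional mice (blue) or both; filled points were called. Slc36a1 is the highest point in both kinds of mice, at 1.51 in germ-free and 1.32 in conventional mice, and Slc38a4 the lowest, at -1.91 in germ-free and -1.96 in conventional mice.

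In the methionine cycle, 4 of 15 genes rose and none fell with pregnancy in germ-free mice, and 1 fell and none rose in conventional mice. Bhmt, which remakes methionine from homocysteine and betaine, had 2633, 4680.1, 3383, 2772 and 3333 CPM in germ-free pregnant livers against 1359 to 1706 CPM (median 1472) in germ-free non-pregnant livers, which did not overlap. Its log2 change was 1.15 ± 0.24 in germ-free mice (adjusted p = 0.00185) and 0.37 ± 0.23 in conventional mice (adjusted p = 0.392). The conventional change ran from 0.24 to 0.57 when 1 library was left out. Gamt, the methyltransferase of creatine synthesis, rose by 1.08 ± 0.23 (adjusted p = 0.00309) and Mat1a, the liver S-adenosylmethionine synthetase, by 0.69 ± 0.21 in germ-free mice (adjusted p = 0.0318). In conventional mice Gamt had 0.39 ± 0.23 (adjusted p = 0.345) and Mat1a 0.16 ± 0.21 (adjusted p = 0.734). Mat1a ran there from 0.01 to 0.36 when 1 library was left out. Gnmt, the glycine methyltransferase, fell by 0.84 ± 0.23 in conventional mice (adjusted p = 0.0244), or by 0.66 without replicate 2 (adjusted p = 0.0584). Ahcy, which yields homocysteine, had -0.03 ± 0.18 in germ-free (adjusted p = 0.936) and -0.58 ± 0.18 in conventional mice (adjusted p = 0.0514). Its conventional change ran from -0.65 to -0.42 when 1 library was left out. Conventional pregnant replicate 2 was the lowest of its group for Bhmt (1072 CPM), Mat1a (826 CPM) and Ahcy (677 CPM).

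In cysteine breakdown and sulfide oxidation, 2 of 12 genes fell and none rose with pregnancy in germ-free mice, and 5 fell and none rose in conventional mice. Ethe1, the mitochondrial persulfide dioxygenase, fell by 0.97 ± 0.28 in germ-free (adjusted p = 0.0292) and 0.90 ± 0.28 in conventional mice (adjusted p = 0.0446). Tstd1, a thiosulfate sulfurtransferase, fell by 1.13 ± 0.36 in germ-free (adjusted p = 0.043) and 1.24 ± 0.36 in conventional mice (adjusted p = 0.0301). Got1, the cytosolic aspartate aminotransferase, fell by 1.12 ± 0.32 in conventional mice (adjusted p = 0.0307). Without replicate 2 these conventional calls were lost, while the log2 changes were -0.99 for Ethe1 (adjusted p = 0.0519), -1.22 for Tstd1 (adjusted p = 0.0629) and -0.97 for Got1 (adjusted p = 0.0887). Tst, the mitochondrial rhodanese, fell by 0.71 ± 0.16 in conventional mice (adjusted p = 0.00721) and was still called without replicate 2 (adjusted p = 0.024). Mpst, Sqor and Suox, further enzymes of sulfide and sulfite handling, had log2 changes between 0.19 and 0.35 in germ-free and between -0.06 and 0.06 in conventional mice, none called.

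Among 9 tested genes of cysteine and neutral amino acid uptake, 2 fell and none rose with pregnancy in each kind of mouse. Slc38a4, a sodium-coupled neutral amino acid carrier, had 247, 356, 175, 203 and 222 CPM in germ-free pregnant livers against 747 to 1082 CPM (median 922) in germ-free non-pregnant livers. In conventional mice it had 389.7, 86.6, 186, 154 and 190.4 CPM in pregnant livers against 645 to 1080 CPM (median 713) in non-pregnant livers. These ranges did not overlap, and the log2 change was -1.91 ± 0.27 in germ-free and -1.96 ± 0.27 in conventional mice (adjusted p = 4.13e-05 in each). Slc7a2, a carrier of basic amino acids, fell by 1.20 ± 0.29 in germ-free (adjusted p = 0.00774) and 1.46 ± 0.29 in conventional mice (adjusted p = 0.00199). Slc7a11, the cystine exchanger, stayed at 0.569 CPM or less in every library.

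Of 10 genes of glutathione synthesis and turnover, 1 rose and 1 fell with pregnancy in germ-free mice and 1 fell in conventional mice. Oplah, the 5-oxoprolinase, fell by 0.54 ± 0.14 in germ-free (adjusted p = 0.0141) and 0.49 ± 0.14 in conventional mice (adjusted p = 0.0307), and had -0.42 there without replicate 2 (adjusted p = 0.0934). Cndp2, a cytosolic dipeptidase, rose by 0.55 ± 0.16 in germ-free mice (adjusted p = 0.0313). Gclc, Gclm and Gss, which build glutathione from cysteine, had log2 changes between -0.34 and 0.50 with pregnancy, none called. Of 12 genes of bile acid feedback, 1 rose and 1 fell in germ-free mice and 1 fell in conventional mice. Klb, the co-receptor for the intestinal hormone FGF15, rose by 1.15 ± 0.32 (adjusted p = 0.0184) and Nr0b2, the repressor SHP, fell by 1.27 ± 0.34 in germ-free mice (adjusted p = 0.0165). The Nr0b2 call was lost without germ-free non-pregnant replicate 2, the highest of its group at 58.7 CPM, or without germ-free pregnant replicate 5. In conventional mice Klb had 0.51 ± 0.31 (adjusted p = 0.374) and Nr0b2 -0.93 ± 0.34 (adjusted p = 0.0897), neither called. Cyp27a1, the sterol 27-hydroxylase, fell by 0.68 ± 0.21 in conventional mice (adjusted p = 0.0454), and had -0.55 without replicate 2 (adjusted p = 0.133). Nr1h4, the bile acid receptor FXR, had -0.27 ± 0.18 in germ-free and -0.47 ± 0.18 in conventional mice, and Cyp7a1 had 0.42 ± 0.45 in germ-free and 0.33 ± 0.45 in conventional mice, none called.

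Marker genes also changed with pregnancy, and their part in these results was not tested. Over all tested genes, 7.15% were called higher and 3.6% lower in germ-free mice, and 5.49% and 3.52% in conventional mice. All 6 erythroid markers were called higher in germ-free and 2 in conventional mice. Of 5 tested hepatocyte markers, 3 were called higher and 1 lower in germ-free mice, and 1 higher and 1 lower in conventional mice. Periportal markers called lower numbered 2 of 6 in germ-free and 3 in conventional mice, and pericentral markers 1 of 7 in germ-free and 3 in conventional mice. Acute phase genes were called higher for 0 of 5 in germ-free and 5 in conventional mice, and cell cycle genes for 0 of 5 in germ-free and 3 in conventional mice. Marker calls were not recounted without conventional pregnant replicate 2. Without replicate 2, the acute phase genes summed to 57.1 to 98.2 CPM in conventional pregnant livers, against 53.7 to 136 CPM in conventional non-pregnant livers. Cell cycle genes summed to 16.3 to 26.2 CPM against 4.32 to 24.4 CPM in the same livers. Periportal markers summed to 2148 to 4516 CPM against 4476.5 to 8155 CPM, with 1392 CPM in replicate 2. Pericentral markers summed to 3963.5 to 5741 CPM against 7220 to 8158 CPM, with 1547 CPM in replicate 2. Among endothelial, stellate, cholangiocyte, and adipocyte and muscle markers, at most 1 gene per list was called in each direction, and no Kupffer cell, neutrophil or B and T cell marker was called.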

How the data were processed

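Livers of 22 female mice were profiled by RNA-seq with a kit that does not mark strand, per the labels' protocols. The deposited table holds estimated counts per Ensembl gene. Salmon 0.11.3, edgeR 3.24.3 and GRCm38.p6 are named in the submitters' processing notes, and the annotation release is not given in the sources used here. Names came from GENCODE M21, which matched 97.7% of IDs with their version and 99.93% without. Here the deposited estimated counts were rounded, which changed 0.0083% of the counts. Genes were kept by edgeR's filter (minimum count 10, minimum total 15), leaving 15928. They were scaled by TMM and fitted with edgeR 4.0.16 (R 4.3.3) by the quasi-likelihood test, with 1 term per group over all 22 libraries, and Benjamini-Hochberg adjustment. Intervals after log2 changes are SE, worked back from the test as the size of the log2 change over the square root of its F statistic. Alternatives included DESeq2 1.42.0, other scalings and filters, and leaving out each library. The fit was tested on simulated data. Within groups, all 50 library pairs differed by more than sampling noise (lowest mean chi-square 33.9). That each library is 1 mouse is taken from the labels.

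The 6 genes and the lists were chosen with earlier results of these data known. Genes named by a rule set beforehand were the 6 genes, a set of 21 listed pathway genes, up to 3 called genes per list by size of change, and the 5 genes most like Csad. Cyp8b1, Ggct, Slc38a2 and Acnat2 were named after their values were seen. Bhmt2 and Selenbp1 were named to complete the list of calls, Ggt1 and Slc7a9 as untested, and Zfp740 for its overlap with Csad. The Spearman genes were named as a check. CPM per kb used the merged length of all annotated exons of a gene, not that of the transcripts expressed, so ranks between genes depend on it. Promoter sequences are those of RefSeq on GRCm38.p6, and 3 of the 6 genes matched. At these depths a gene near 0 CPM, such as Gadl1, rests on few counts.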

Additional observations from a re-analysis of the deposited data

Results flagged for a closer look

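Single livers that lay far from the rest of their group were looked for among the 6 genes and 21 pathway genes, 108 groups in all, of which 12 had a lone extreme value. The cutoff flags about 1 in 20 groups of independent, normally distributed values. These groups share the same 22 libraries and CPM values can be skewed, so that rate was not checked here and cannot serve as a baseline. Among the 6 genes, Cbs was high in 1 germ-free non-pregnant library (replicate 2, 555 CPM, next highest 344 CPM) and in 1 conventional non-pregnant library (replicate 6, 655 CPM, next 346 CPM). Slc6a6 was high in conventional pregnant replicate 1, at 74.9 CPM with the next at 49.4 CPM. Cdo1 was low in conventional pregnant replicate 2, at 976 CPM with the next at 1439 CPM. That library also had the highest Gclc of its group (353 CPM, next 172 CPM) and the highest Gss (151 CPM, next 100.3 CPM), and the lowest Cyp7a1 (17.8 CPM, next 170.03 CPM). Conventional non-pregnant replicate 6, with the high Cbs, also had the highest Bhmt (3119 CPM, next 2060.4 CPM) and Suox (128 CPM, next 95.1 CPM) of its group. In germ-free pregnant livers, Cyp7a1 was high in replicate 3 (248 CPM, next 137 CPM), Tst in replicate 1 (248 CPM, next 157 CPM) and Slc6a13 in replicate 4 (159 CPM, next 139 CPM). No Csad value was flagged in this search. Germ-free pregnant replicate 2 (40.0 CPM, next 18.4 CPM) and conventional pregnant replicate 1 (303 CPM, next 139 CPM) still lay well above the rest of their groups.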

How the results depend on the processing

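Csad was called lower in germ-free non-pregnant mice under all 19 alternatives (-2.74 to -2.58). In germ-free pregnant mice it was called under 16 of 17 (-3.35 to -2.35); with only the 2 pregnant groups fitted its change was -2.87 and it was not called, in a fit that called 2 genes higher and 3 lower among 14203 tested. Its pregnancy changes were uncalled throughout (-0.22 to 0.45 in germ-free, -0.06 to 0.64 in conventional mice), and the difference between them ran from -0.69 to 0.32. Of the other 5 genes, Cbs was called with pregnancy in germ-free mice without germ-free non-pregnant replicate 2 (0.80), and Cth in conventional mice without conventional pregnant replicate 1 (-0.92). The listed pathway genes called with pregnancy in conventional mice numbered 9 with only the groups compared (14 in the reported fit), and 5 to 13 when 1 library was left out: 5 without conventional pregnant replicate 2, and 9 each without conventional pregnant replicate 4 or without the fourth or the fifth conventional non-pregnant mouse. In germ-free mice they numbered 8 to 18, with 8 without germ-free pregnant replicate 5. DESeq2 called 2 listed genes in each germ-free comparison, where edgeR called 0. DESeq2 also called 55 genes higher and 62 lower over all genes in non-pregnant mice, against 14 and 11 by edgeR, and 64 and 44 in pregnant mice, against 13 and 8. Scaling by library totals alone called 470 higher and 2127 lower with pregnancy in germ-free mice, against 1139 and 574, and the median gene moved to -0.33; in conventional mice it called 551 and 544 against 875 and 561, and in germ-free against conventional pregnant mice 4 and 16 against 13 and 8, with a median of -0.28. Under that scaling 3 listed genes rose and 17 fell in germ-free mice. No result changed sign while called. Causes of these changes were not tested.

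Replicate numbers were not treated as pairs in the reported fit. Of 31 same-numbered pairs of libraries, 6 had a correlation above 0.1 (-0.255 to 0.31). Pairs with different numbers were not correlated, so these values cannot show whether the numbers pair the samples. With replicate number as a block, the listed genes called numbered 18 with pregnancy in germ-free mice and 13 in conventional mice, 0 in the other comparisons, and the log2 changes of Csad were -2.87 in pregnant and -2.65 in non-pregnant mice, 0.25 and 0.47 with pregnancy in germ-free and conventional mice, and -0.22 for their difference.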
